A study of Mus musculus with 12 samples.

Results

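The gene set described here is Plagl1, which encodes a zinc-finger transcription factor, together with further imprinted genes that are known as members of one co-regulated network in mouse tissues: H19, Igf2, Cdkn1c, Dlk1, Meg3, Peg3, Grb10, Mest and Ndn. The members were found in the read count table by matching Ensembl gene identifiers to these symbols, and all 10 were present among 35496 rows and passed the filter on low counts with 19497 genes. They were chosen with results of these libraries known: Plagl1 had been named for its low level at 94 dB, so the values of all members are given as a description, with no test. The data were RNA-seq counts of cochlea from FVB/NCrl mice at postnatal day 60, with 12 libraries in 3 groups of 4: 70 dB SPL (ambient sound), 94 dB and 105 dB, each for 30 min with the animals awake. RNA was taken right after the exposure. The labels name no genetic change and no sex. Whether each library was made from a single animal or from pooled ones is not in the labels, so p-values measure only the spread between these libraries.

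Imprinted genes are read mainly from the copy inherited from a single parent, under the control of DNA methylation marks set in the germ line. Plagl1, also called Zac1, is read from the paternal copy, and in cultured cells it can arrest the cell cycle and induce cell death. In mouse embryonic liver it has been placed above other imprinted genes of growth control, among them H19, Igf2, Cdkn1c and Dlk1. Most of these genes are highest in the embryo and fall after birth. Counts per gene do not separate the parental copies, and no result here bears on imprinting itself.

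The start regions of the 4 members that fell below the 70 dB group at 94 dB under the threshold of the fit are given first. Whether these windows carry the parental marks of their genes was not examined. The letters are from RefSeq on GRCm38.p6 and cover 250 bases before to 50 bases after an annotated start, written 5′ to 3′ on the strand of the gene, with CpG dinucleotides in capitals. The Plagl1 window lies at chr10:13090582-13090881 on the plus strand, inside the annotated span of the gene, the Peg3 window at chr7:6730370-6730669 on the minus strand, the Grb10 window at chr11:12037371-12037670 on the minus strand and the Mest window at chr6:30737800-30738099 on the plus strand.
Plagl1: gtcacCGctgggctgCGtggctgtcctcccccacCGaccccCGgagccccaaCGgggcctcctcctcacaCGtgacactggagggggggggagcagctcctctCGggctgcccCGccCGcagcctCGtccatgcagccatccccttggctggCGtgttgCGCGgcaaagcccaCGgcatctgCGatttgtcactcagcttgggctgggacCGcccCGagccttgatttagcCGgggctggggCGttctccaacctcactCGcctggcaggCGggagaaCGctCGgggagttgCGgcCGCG
Peg3: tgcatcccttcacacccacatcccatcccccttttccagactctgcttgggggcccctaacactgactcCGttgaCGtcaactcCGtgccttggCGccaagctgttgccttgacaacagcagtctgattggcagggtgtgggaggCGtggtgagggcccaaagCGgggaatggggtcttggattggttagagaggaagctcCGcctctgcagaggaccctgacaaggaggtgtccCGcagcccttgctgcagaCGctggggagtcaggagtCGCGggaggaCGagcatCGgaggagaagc
Grb10: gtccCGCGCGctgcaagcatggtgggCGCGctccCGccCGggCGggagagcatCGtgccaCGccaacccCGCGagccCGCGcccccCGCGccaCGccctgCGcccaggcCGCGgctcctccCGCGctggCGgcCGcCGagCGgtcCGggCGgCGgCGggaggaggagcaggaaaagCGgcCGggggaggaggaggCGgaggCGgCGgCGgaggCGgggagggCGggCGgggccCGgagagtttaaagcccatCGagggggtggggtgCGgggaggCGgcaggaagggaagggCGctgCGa
Mest: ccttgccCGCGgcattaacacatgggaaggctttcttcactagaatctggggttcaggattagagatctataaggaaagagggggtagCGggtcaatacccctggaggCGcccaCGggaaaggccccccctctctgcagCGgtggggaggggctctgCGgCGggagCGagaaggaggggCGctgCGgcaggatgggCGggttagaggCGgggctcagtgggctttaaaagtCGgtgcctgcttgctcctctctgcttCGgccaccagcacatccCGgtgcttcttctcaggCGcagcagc

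The Plagl1 window held 26 CpG and 70.7% G and C, and 16.9% of 32851 start windows in the mouse table held as many CpG. The Grb10 window held 45 CpG, a number reached by 1.93% of windows. The Mest window held 17 (31.4% of windows) and the Peg3 window 13 (37.9%), against a median of 7 over all windows. These 4 windows were all above that median, and Grb10 had the most CpG. Where a gene had more than 1 window, however, the one richest in CpG was printed. Another Grb10 window held 9 CpG and another Mest window 8, and the unprinted windows of members ran between 1 (Meg3) and 24 (Igf2). The counts are partly set by that choice, so nothing is read from them. The letters GGGGCCCC, known as a core that Plagl1 protein binds and the same on both strands, were found at bases 50 to 57 of the Peg3 window, in 1 of 15 windows that 8 of the 10 members had in the table. They were present in 354 of all windows (1.08%). A match is a description of the letters, and the windows without one say nothing about binding.

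Library totals ran between 31141706 and 42317781 counts, and all 10 cochlear markers (Coch, Otos, Tecta, Gjb2 and others) were detected in every library, with sums between 8394 and 10124 CPM (counts scaled to a common library size). Libraries of the 94 dB group stood apart in the share of counts from mitochondrial genes, which lay within 5.08 and 5.68% in the 70 dB group, within 2.68 and 3.59% in the 94 dB group and within 4.43 and 5.35% in the 105 dB group. Within that group replicates 3 and 4 were lowest in that share and highest in haemoglobin counts, at 2.90 and 2.95% against 1.75 and 2.07% in replicates 1 and 2. Fold changes at 94 dB against 70 dB also followed the GC content of genes (Spearman's rho 0.46) and their exon length (rho −0.26) over 19484 genes. GC content was that of the longest transcript, 46.4% for Plagl1 against a median of 49.6% over these genes. The merged exons of Plagl1 had a length of 7819 bases, against a median of 3724.5 bases. The 12 fibrocyte and fibroblast markers had sums of 12598 to 14987 CPM in 94 dB libraries, against 14326 to 16281 CPM in 70 dB libraries, none at 0, with 5 of 12 lower and none higher at 94 dB. These sums overlapped between the levels, while those of 4 other marker lists lay apart. The 10 endothelial and pericyte markers summed to 525 to 587 CPM at 94 dB and 611 to 650 CPM at 70 dB (3 lower, none higher), the 9 markers of the stria vascularis to 1089 to 1230 CPM and 1255 to 1365 CPM in the same order (2 lower, none higher), and the 8 supporting cell markers to 381 to 399 CPM and 423 to 462 CPM (4 lower, 2 higher). Of these 4 lists, the 7 markers of meninges and perichondrium had the higher sums at 94 dB. They summed to 9806 to 12142 CPM at 94 dB and 7697 to 8714 CPM at 70 dB (1 of 6 tested higher and 1 lower). Tcf21 was the marker of this list at 0 in some libraries. The 10 neutrophil and macrophage markers had overlapping sums, 7679 to 15107 CPM at 94 dB and 7371 to 9106 CPM at 70 dB (6 higher, none lower). At 105 dB the supporting cell sums, 384 to 422 CPM, also lay below those at 70 dB. Erythroid sums were higher and apart at 105 dB, at 22291 to 31436 CPM against 18147 to 22272 CPM at 70 dB. Proliferating cell sums were too, at 1053.5 to 1319 CPM against 882 to 1051 CPM. No single marker of these lists passed at 105 dB against 70 dB. The part of these shifts in the values of the members was not tested.

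Counts of members read against all genes were as follows. At 94 dB against 70 dB, 4 of 10 members (Plagl1, Peg3, Grb10 and Mest) were lower and none higher at an adjusted p under 0.05, where 26.1% of all tested genes passed, 12.2% lower and 13.9% higher. In 3 of them (Plagl1, Peg3 and Mest) all 94 dB libraries lay below all 70 dB libraries, as did 12.3% of all genes, with 25.4% apart in either direction. At 105 dB against 70 dB no member passed in edgeR or in DESeq2, with 3 members and 18.7% of all genes at an unadjusted p under 0.05, and 1.62% of all genes passed, 1.11% higher and 0.508% lower. No member had groups apart in that comparison, where 10.8% of all genes did, 5.78% higher and 5.03% lower. At 105 dB against 94 dB 2 members (Plagl1 and Grb10) were higher, both with groups apart, where 17.3% of all genes passed, 8.06% higher and 9.23% lower, and 21.3% had groups apart, 10.5% higher and 10.8% lower. The median log2 fold change of the members was −0.29, −0.20 and 0.06 in the 3 comparisons in this order, and over all genes −0.018, −0.0039 and 0.0015. Without 94 dB replicates 3 and 4, Plagl1 was the member that passed at 94 dB against 70 dB, and none passed at 105 dB against 94 dB. With the trend on GC content and length removed, the members past the threshold at 94 dB against 70 dB were Plagl1, Cdkn1c and Grb10. Grb10 at 105 dB against 94 dB did not pass without 94 dB replicate 3, 94 dB replicate 4 or 105 dB replicate 1. The comparisons share libraries, and since the members were chosen on results of these libraries, nothing is read from these counts.

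**Figure D1:**
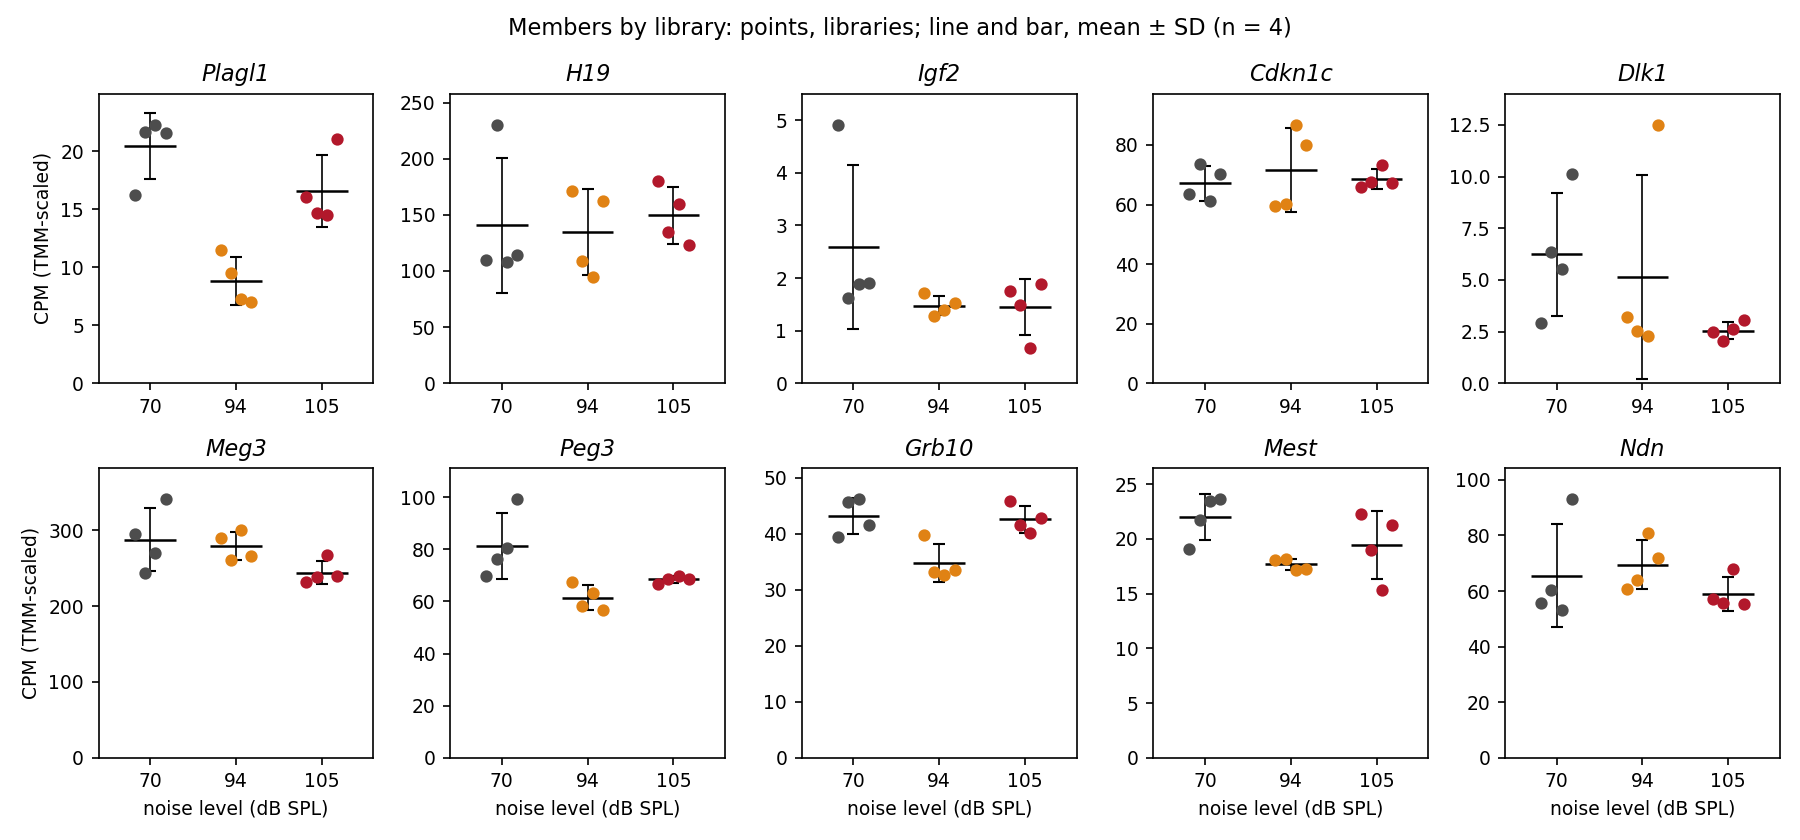
Level of each member in CPM, with TMM scaling, in the 12 libraries. Points are libraries, the horizontal line the mean and the bar the SD (n = 4), with noise levels low to high. The 4 Plagl1 values at 94 dB, 6.99 to 11.5 CPM, lie below all values of the other noise levels, while in H19, Igf2 and Dlk1 single libraries stand far from their group.

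Plagl1, the regulator of the set (ENSMUSG00000019817, GRCm38 chr10:13060504-13131694, plus strand), was low in the 94 dB cochleae. Its level was 16.2, 21.7, 22.3 and 21.5 CPM in the 70 dB libraries, 11.5, 9.54, 7.29 and 6.99 CPM in the 94 dB libraries and 16.1, 14.7, 14.5 and 21.0 CPM in the 105 dB libraries. All 94 dB libraries lay below all others, and the 105 dB and 70 dB libraries overlapped. The mean was 8.82 ± 2.09 CPM at 94 dB and 20.4 ± 2.84 CPM at 70 dB (SD, n = 4 each). The fit gave −1.21 on the log2 scale, SE 0.17. Of 19497 genes, 116 had a lower fold change in this comparison. At 105 dB the mean was 16.5 ± 3.07 CPM (SD, n = 4). On the log2 scale this was −0.30 (SE 0.16) against 70 dB and 0.91 (SE 0.17) against 94 dB. The mean of the louder exposure lay between those of the other groups. In a whole cochlea, fewer cells of a type and less RNA per cell cannot be told apart. Within the 94 dB group the lowest Plagl1 values were those of replicates 3 and 4, the libraries with the lowest mitochondrial share. Without these libraries the log2 fold change against 70 dB was −0.96 with an SE of 0.17, and with the trend on GC content and length removed it was −1.09 with an SE of 0.15.

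**Figure D2:**
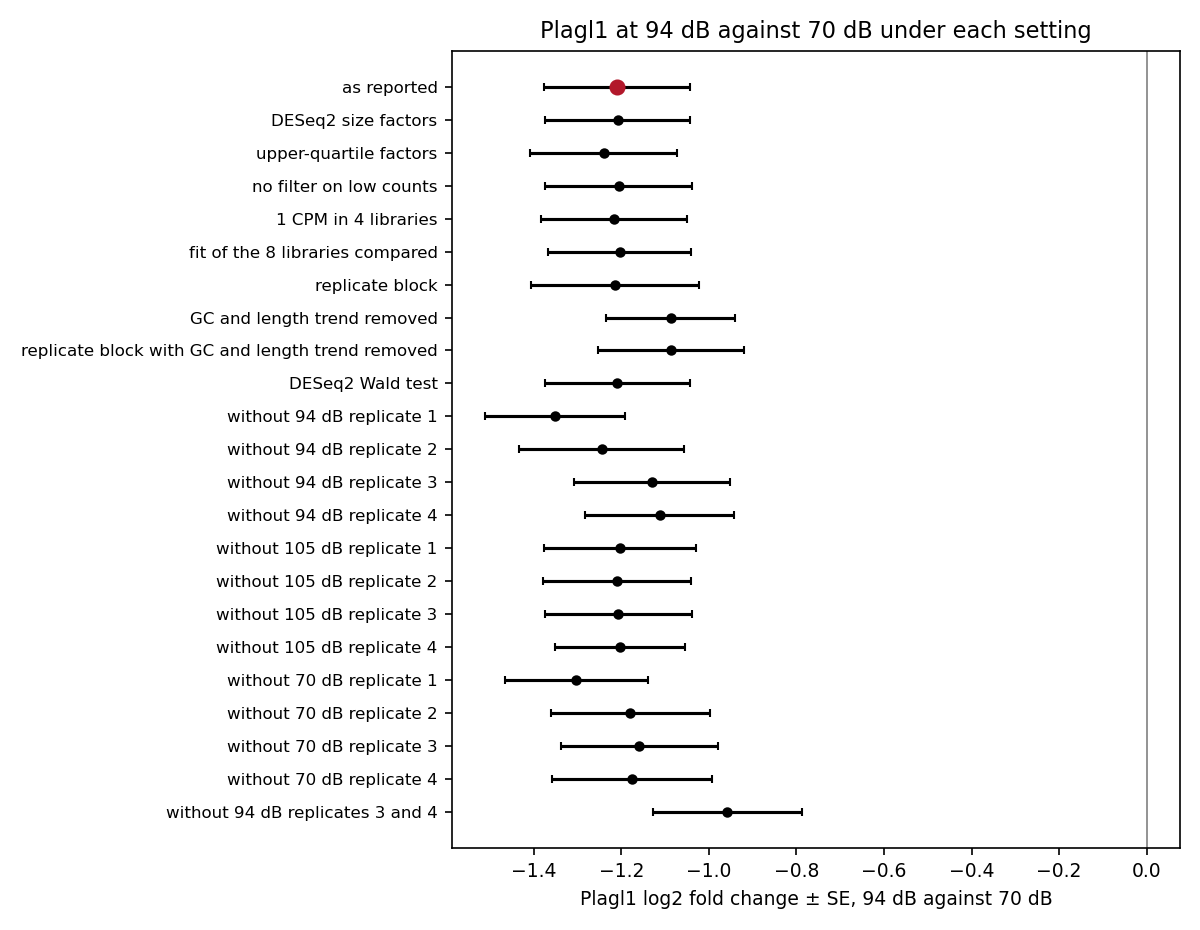
Log2 fold change of Plagl1 at 94 dB against 70 dB, with its SE, in the reported fit (red) and under each of 22 alternatives (black). The estimates run between −1.35 and −0.96, and all lie below 0.

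The genes that follow Plagl1 most closely over the libraries were not members. Among 14033 genes whose log2 CPM averaged 1 or more, the highest Pearson's r of log2 CPM with Plagl1 over 12 libraries was that of Zc3h14 (0.987), which encodes a poly(A)-binding zinc-finger protein, of Sdc2 (0.982), a cell-surface heparan sulfate proteoglycan, and of Atad1 (0.981), a mitochondrial AAA ATPase. Rasa1 (0.978), a GTPase-activating protein of Ras, Tbc1d23, Ogn (osteoglycin, a small matrix proteoglycan), Ppp4r3b and Fermt2 (kindlin-2, an integrin partner) completed the first 8, with r down to 0.974. Ogn averaged 331 ± 27.2 CPM at 70 dB, 197 ± 30.7 CPM at 94 dB and 268 ± 30.7 CPM at 105 dB (SD, n = 4 each), the same order of groups as Plagl1. After each group's mean was subtracted, Zc3h14 (0.940), Ogn (0.937) and Yipf6 (0.931) had the highest r, and Sdc2 was again among the first 8, with Zfp930, Cped1, Phc3 and Cul3. The libraries also differed in depth and RNA composition, whose part in r was not tested, and r describes only this set. The 13 genes were all low in GC content, with 1.11% (Ogn) to 30.1% (Fermt2) of tested genes lower. Their log2 fold changes at 94 dB against 70 dB lay between −0.75 (Ogn) and −0.18 (Phc3), and once the trend on GC content and length was taken out between −0.52 (Ogn) and 0.06 (Phc3), with Atad1 at −0.13 in place of −0.38. The part of GC content in these r values was not tested.

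Among the members, Grb10 (r = 0.903), Peg3 (0.781) and Mest (0.742) followed Plagl1 over the 12 libraries, and 332 genes had a higher r than Grb10. Igf2 (0.280), H19 (0.141), Dlk1 (0.104) and Meg3 (−0.129) had little relation with Plagl1, and Ndn (−0.349) and Cdkn1c (−0.404) had negative values. With group means subtracted, r with Plagl1 was 0.689 for Grb10, 0.586 for Mest, 0.442 for Peg3 and −0.578 for Cdkn1c. The members did not share one pattern over these libraries. Meg3 with Ndn (0.708) and Meg3 with Peg3 (0.656) were other pairs with high values after group means were subtracted.

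The growth factor Igf2 (ENSMUSG00000048583, chr7:142650766-142666816, minus strand), a paternally expressed fetal growth factor, had the lowest level of the members. It read 4.92, 1.63, 1.89 and 1.91 CPM at 70 dB, 1.71, 1.28, 1.39 and 1.53 CPM at 94 dB and 1.75, 1.49, 0.676 and 1.88 CPM at 105 dB. The 70 dB replicate 1 was the highest library, and the groups overlapped. The log2 fold change was −0.82 with an SE of 0.35 at 94 dB and −0.83 with an SE of 0.35 at 105 dB, both against 70 dB, and without 70 dB replicate 1 it was −0.29 and −0.30. Of the exon length of Igf2, 62.8% is shared with the gene model Gm49394 on the same strand, so the assignment of reads is uncertain.

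Dlk1 (ENSMUSG00000040856, chr12:109452823-109463336, plus strand), a paternally expressed membrane protein related to Notch ligands, was the most variable member. Its values were 2.93, 6.34, 5.55 and 10.1 CPM at 70 dB, 3.21, 2.55, 2.27 and 12.5 CPM at 94 dB and 2.47, 2.02, 2.64 and 3.07 CPM at 105 dB. The groups overlapped, and 94 dB replicate 4 held the highest value of all libraries. The log2 fold change was −0.27 with an SE of 0.56 at 94 dB and −1.28 with an SE of 0.58 at 105 dB, both against 70 dB, and the 94 dB value was −1.21 without replicate 4 of that group, a value past the threshold in that fit, and 0.07 without 70 dB replicate 4. The SD of log2 CPM within groups was 0.80 for Dlk1, 0.59 for Igf2 and 0.42 for H19, against 0.11 for Grb10.

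Grb10 (ENSMUSG00000020176, chr11:11930508-12038683, minus strand), an adaptor that binds the insulin and IGF1 receptors and restrains their signal, was lower at 94 dB. Its level was 39.5, 45.7, 46.2 and 41.5 CPM at 70 dB, 39.8, 33.1, 32.6 and 33.5 CPM at 94 dB and 45.9, 41.7, 40.1 and 42.9 CPM at 105 dB. One 94 dB library, replicate 1, overlapped with the 70 dB group, and all 94 dB libraries lay below all 105 dB libraries. The log2 fold change was −0.31 with an SE of 0.08 at 94 dB and −0.02 with an SE of 0.08 at 105 dB, both against 70 dB, and 0.30 with an SE of 0.08 at 105 dB against 94 dB. With the replicate block and the GC and length trend removed together, Grb10 passed in neither of the comparisons with 94 dB (−0.22 and 0.24).

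Cdkn1c (ENSMUSG00000037664, chr7:143458339-143461050, minus strand) encodes p57Kip2, a maternally expressed inhibitor of cyclin-dependent kinases. It ranged between 61.1 and 73.7 CPM at 70 dB, 59.3 and 86.9 CPM at 94 dB and 66.0 and 73.4 CPM at 105 dB. The 94 dB group was split, with replicates 1 and 2 at 59.3 and 60.1 CPM and replicates 3 and 4 at 86.9 and 80.1 CPM. Its log2 fold change at 94 dB against 70 dB was 0.09 with an SE of 0.11, and turned to −0.24 with an SE of 0.07 when the trend on GC content and length was removed, a value past the threshold in that fit. Without 94 dB replicates 3 and 4 it was −0.17. An antisense gene, Gm44732, shares 30.7% of the exon length of Cdkn1c, so these reads are uncertain as well.

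The maternally expressed long noncoding RNA H19 (ENSMUSG00000000031, chr7:142575529-142578143, minus strand), a neighbour of Igf2, read 109.8, 230.4, 108 and 115 CPM at 70 dB, 171, 109, 94.6 and 163 CPM at 94 dB and 180.3, 135, 159.8 and 123 CPM at 105 dB. The groups overlapped, and 1 library at 70 dB, replicate 2, was high. The log2 fold change was −0.07 with an SE of 0.29 at 94 dB and 0.09 with an SE of 0.29 at 105 dB, both against 70 dB, and without that library the values were 0.28 and 0.43. Meg3 (ENSMUSG00000021268, chr12:109541001-109571726, plus strand), a maternally expressed long noncoding RNA next to Dlk1, ranged between 243 and 341 CPM at 70 dB, 260.3 and 299.6 CPM at 94 dB and 232 and 267 CPM at 105 dB. Its log2 fold change was −0.04 with an SE of 0.09 at 94 dB and −0.23 with an SE of 0.09 at 105 dB, both against 70 dB, and the groups overlapped. Without 70 dB replicate 4 these values were 0.06 and −0.13, and with the trend on GC content and length removed the 94 dB value was 0.10.

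Peg3 (ENSMUSG00000002265, chr7:6703892-6730431, minus strand), a paternally expressed zinc-finger protein linked in mice to growth and maternal behaviour, was lower at 94 dB. It read 69.7, 76.4, 80.3 and 99.3 CPM at 70 dB, 67.5, 58.4, 63.3 and 56.6 CPM at 94 dB and 66.7, 68.5, 69.9 and 68.7 CPM at 105 dB. The highest 94 dB library stayed below the lowest 70 dB library, and the 105 dB libraries fell in a narrow band. The log2 fold change was −0.41 with an SE of 0.09 at 94 dB and −0.25 with an SE of 0.09 at 105 dB, both against 70 dB, and −0.24 with an SE of 0.08 at 94 dB with the trend on GC content and length removed, where it no longer passed. Without 70 dB replicate 4, the library with the highest Peg3 value, the 105 dB value was −0.13.

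Mest (ENSMUSG00000051855, chr6:30723547-30748465, plus strand), a paternally expressed protein of the alpha/beta hydrolase fold, read 19.1, 21.7, 23.5 and 23.6 CPM at 70 dB, 18.1, 18.1, 17.2 and 17.2 CPM at 94 dB and 22.2, 18.98, 15.3 and 21.2 CPM at 105 dB. The 94 dB libraries lay within 1 CPM of each other and below the 70 dB libraries, and the 105 dB group overlapped with both. The log2 fold change was −0.31 with an SE of 0.11 at 94 dB against 70 dB, and Mest did not pass in 8 of 12 fits that left out 1 library, which were those without any 1 of the 94 dB libraries, without 105 dB replicate 2 and without 70 dB replicate 2, 3 or 4. With the trend on GC content and length removed Mest did not pass either, without or with the replicate block (−0.24 in both). The neighbour Copg2 on the other strand shares 23.1% of the exon length of Mest. Ndn (ENSMUSG00000033585, chr7:62346569-62350262, plus strand), a paternally expressed growth suppressor of the MAGE family, ranged between 53.2 and 93.1 CPM at 70 dB, 60.9 and 80.7 CPM at 94 dB and 55.2 and 67.9 CPM at 105 dB. Its log2 fold change was 0.08 with an SE of 0.16 at 94 dB against 70 dB, and −0.15 with an SE of 0.16 at 105 dB against 70 dB. The 70 dB replicate 4 held the highest Ndn value, and without it the 94 dB value was 0.31, past the threshold in that fit, and the 105 dB value turned to 0.07.

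**Figure D3:**
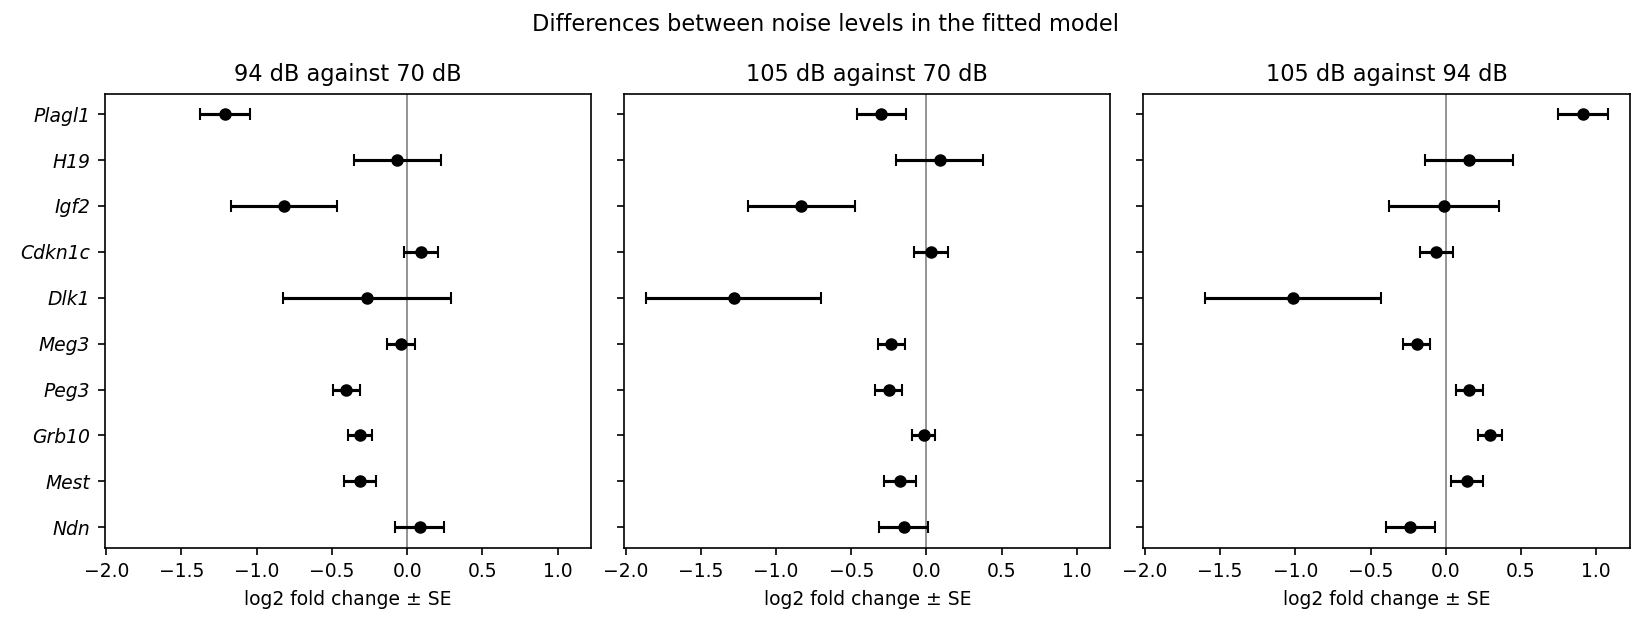
Log2 fold change of each member with its SE in the 3 comparisons (94 dB against 70 dB, 105 dB against 70 dB, 105 dB against 94 dB). The estimate of Plagl1 at 94 dB, −1.21, is the lowest of the members in the first panel, and those of Dlk1 and Igf2 have the longest bars.

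Compared per length of exon at 70 dB, the levels spanned a wide range. H19 was highest at 57.2 CPM per kb, followed by Cdkn1c at 32.9, Ndn at 17.7, Meg3 at 15.9, Peg3 at 6.11, Mest at 5.57, Grb10 at 4.76, Plagl1 at 2.61, Dlk1 at 1.10 and Igf2 at 0.452 CPM per kb. The ranges of Ndn and Meg3, of Peg3 and Mest, of Mest and Grb10, and of Dlk1 and Igf2 overlapped at 70 dB, so the order within these pairs is not fixed. At 94 dB Plagl1 averaged 1.13 CPM per kb and its libraries overlapped with those of Dlk1 (0.908 CPM per kb), the next gene down.

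**Figure D4:**
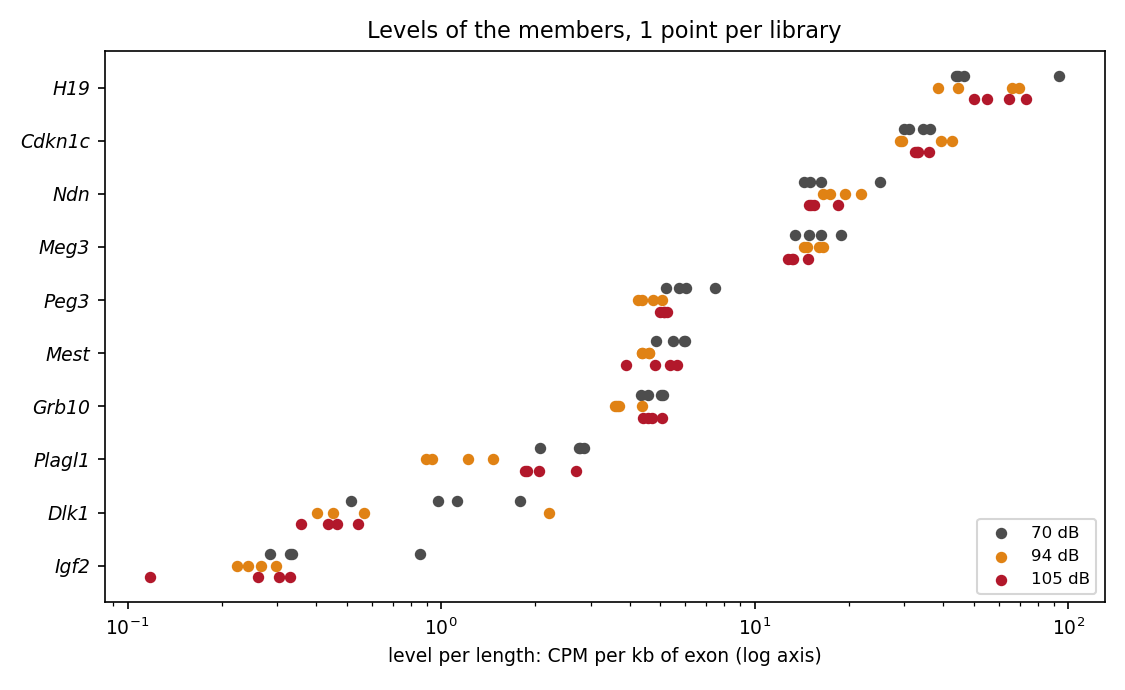
Level per length of exon (CPM per kb, log axis) of each member in each library, with 70 dB in grey, 94 dB in orange and 105 dB in red. H19 and Cdkn1c are highest, Igf2 and Dlk1 lowest, and at 94 dB the Plagl1 points are shifted to the left.

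The other imprinted genes of the same and other domains were taken from a list of 72, of which 68 were in the table and 62 were tested. Whether each of them is imprinted in the adult cochlea was not examined. At 94 dB against 70 dB, 4 rose and 14 fell at an adjusted p under 0.05 in edgeR, where 13.9% of all genes were higher and 12.2% lower, with a median log2 fold change of −0.13 against −0.02 over all genes. Those that rose were Gnas (155 ± 7.83 CPM at 94 dB and 67.6 ± 21.2 CPM at 70 dB, SD, n = 4 each, log2 fold change 1.19, SE 0.25, adjusted p = 0.0067), which encodes a subunit of the stimulatory G protein, Tssc4, and the tetraspanins Tspan32 (0.41, adjusted p = 0.020) and Cd81 (0.21, adjusted p = 0.030). Gnas overlaps antisense and opposite-strand genes, and its adjusted p, 0.00015 to 0.083 over the alternatives, was highest without 94 dB replicates 3 and 4. Tssc4, in the Kcnq1 domain, averaged 47.3 ± 7.28 CPM at 94 dB and 28.6 ± 2.49 CPM at 70 dB (SD, n = 4 each, log2 fold change 0.72, SE 0.11, adjusted p = 0.00027). Among those that fell, Dcn (decorin, a matrix proteoglycan) changed by −0.43 on the log2 scale (SE 0.07, adjusted p = 0.00074) and Ppp1r9a (neurabin, an actin-binding scaffold) also −0.43 (SE 0.07, adjusted p = 0.00079). Kcnq1ot1, the antisense RNA that silences the Kcnq1 domain, fell by 0.51 (SE 0.13, adjusted p = 0.010), and Tnfrsf23 by 0.48, Gatm, an enzyme of creatine synthesis, by 0.37, Pon3 by 0.36, Cobl by 0.31 and Sgce, a sarcoglycan, by 0.28. Dcn, a fibroblast gene, and Kcnq1ot1 lost the call when the trend on GC content and length was removed (adjusted p = 0.14 and 0.33), and the value of Sgce turned to 0.03. Of the 10 with the smallest p, which leave out Tspan32 and Cd81, 8 kept the call in every fit without 1 library. Of these 10, 5 kept it with the GC and length trend removed and 4 without 94 dB replicates 3 and 4. Cobl lost it when 94 dB replicate 2, 94 dB replicate 3 or 70 dB replicate 4 was left out, and Pon3 without 94 dB replicate 3 or 70 dB replicate 3. Tspan32 and Cd81 lost it with that trend removed (adjusted p = 0.062 and 0.071) and without 94 dB replicate 3, 94 dB replicate 4 or 70 dB replicate 3, and Cd81 also without 70 dB replicate 4. The count of 18 was 10 without 70 dB replicate 3, 10 with the GC and length trend removed (5 higher and 5 lower) and 4 without 94 dB replicates 3 and 4. Over all alternatives the adjusted p ran between 2.9e-08 and 0.0078 for Tssc4, between 8.3e-08 and 0.14 for Dcn and between 0.0023 and 0.33 for Kcnq1ot1.

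None of the 62 passed in edgeR at 105 dB against 70 dB, with 9 (14.5%) at an unadjusted p under 0.05, against 18.7% of all genes, and 2 passing in DESeq2, and the edgeR count was 2 without 70 dB replicate 2. Rian, a maternally expressed noncoding RNA of the Dlk1-Meg3 domain, was nearest, at 139.6 ± 12.01 CPM at 105 dB and 182 ± 29.4 CPM at 70 dB (SD, n = 4 each, log2 fold change −0.39, SE 0.10, adjusted p = 0.054). Mkrn3 (−0.65, adjusted p = 0.10) and Gatm (−0.36, adjusted p = 0.082) followed. Between 105 dB and 94 dB, 7 rose and 4 fell, where 8.06% of all genes were higher and 9.23% lower. With the GC and length trend removed 4 were higher and 6 lower, and the 11 were 5 to 7 without 94 dB replicate 3 or 4 or 105 dB replicate 2 or 4.

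**Figure D5:**
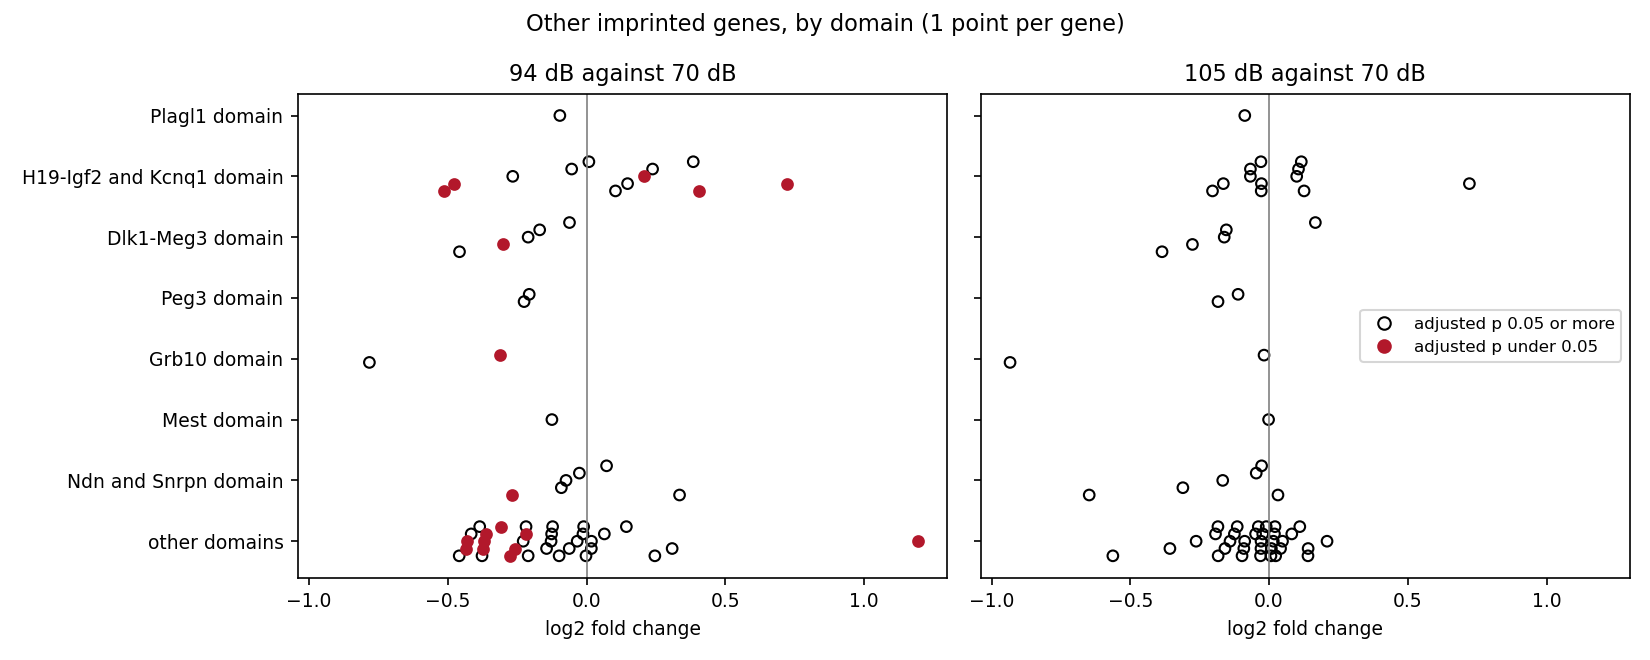
Log2 fold change of each tested imprinted gene that is no member, by chromosomal domain, at 94 dB and at 105 dB against 70 dB. Filled red points passed an adjusted p under 0.05 in edgeR, 18 in the first panel and none in the second.

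Of the close relatives of Plagl1, Plag1 and Plagl2, which bind like DNA sequences, neither passed: Plag1 stood at a log2 difference of −0.47 (SE 0.22, adjusted p = 0.13) and Plagl2 of −0.02 (adjusted p = 0.85) at 94 dB against 70 dB. Among 5 genes linked to Plagl1 as targets, 2 rose at 94 dB and none fell, where 13.9% of all genes were higher and 12.2% lower. They were Adcyap1r1, the PACAP receptor and a known target of Plagl1 in cultured cells (log2 fold change 0.41, SE 0.14, adjusted p = 0.041), and Cdkn1a, the p21 inhibitor (0.30, SE 0.07, adjusted p = 0.0081). Adcyap1r1 fell short of the threshold in fits that left out 94 dB replicate 1, 3 or 4, 105 dB replicate 2 or 70 dB replicate 2 or 4, and its adjusted p ran between 0.022 and 0.31 over the alternatives. The 94 dB call of Cdkn1a was lost without 94 dB replicates 3 and 4, and also after removing the trend on GC content and length (adjusted p 0.0013 to 0.13 over the alternatives). Cdkn1a rose at 105 dB against 70 dB too, by 0.40 (SE 0.07, adjusted p = 0.010). Slc2a4 (0.25, adjusted p = 0.058), Pparg (−0.22, adjusted p = 0.20) and Tcf4 (−0.15, adjusted p = 0.0504) did not pass at 94 dB.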

How the data were processed

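Cochlear RNA of 12 libraries (4 per noise level) was sequenced from TRIzol extracts and TruSeq RNA libraries, per the labels' protocols. The values are raw read counts per gene, deposited as 1 table of 35496 rows. The submitters' processing notes name STAR, featureCounts 1.5.0-p3, CASAVA and build mm10. Gene annotation, strand and multimapping settings were not given in the sources used here. Symbols and positions for 35474 rows are from GENCODE M21 (GRCm38). No value column was left unused.

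Counts were fitted with edgeR 4.0.16 (R 4.3.3): filterByExpr with a minimum count of 10 (19497 genes), TMM scaling, and the robust quasi-likelihood test with 1 mean per group and 9 residual degrees of freedom. Benjamini-Hochberg adjustment ran over all genes tested, with a threshold of 0.05. Fold changes are log2. A count of 3, the limit a count of 0 allows, equals 0.0703 to 0.0966 CPM per library and covers counting error only. On simulated data with true log2 changes of 1 and −1, 92.0% and 84.0% of the changed genes were called for 94 dB against 70 dB over 19277 genes. With true log2 changes of 0.5 and −0.5, 38.0% and 42.0% of the changed genes were called. The simulation gave every gene the same spread beyond counting error (coefficient of variation 0.133) and no trend on GC content or length. These shares thus do not apply to genes with a wider spread, such as Dlk1, Igf2 and H19. No library pair within a group was a duplicate (18 pairs, chi-square per degree of freedom 11.4 to 48.3).

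Alternatives were DESeq2 1.42.0 size factors and its Wald test, upper-quartile factors, no filter, 1 CPM in 4 libraries, fits of 8 libraries, a replicate block, removal of a GC and length trend, each library left out, and 94 dB replicates 3 and 4 left out. Named beside all members are the 10 other imprinted genes with the smallest p at each level against 70 dB, short lists in full, the 5 with the smallest p of longer lists, and the 8 genes most like Plagl1. Tspan32 and Cd81 were named after their values were seen. The members and lists were chosen with earlier results of these data known.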

Additional observations from a re-analysis of the deposited data

Results flagged for a closer look

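In 8 of 156 sets of 4 libraries checked, 1 library lay far from the other members of its group, and chance gives about 1 in 20. These were Plagl1 in 70 dB replicate 1 (16.2 CPM, the others 21.5 to 22.3), H19 in 70 dB replicate 2 (230.4 CPM, the others 108 to 115), Igf2 in 70 dB replicate 1 (4.92 CPM, the others 1.63 to 1.91) and Dlk1 in 94 dB replicate 4 (12.5 CPM, the others 2.27 to 3.21). Grb10 in 94 dB replicate 1 (39.8 CPM, the others 32.6 to 33.5), Ndn in 105 dB replicate 3 (67.9 CPM, the others 55.2 to 57.2), Ddc in 70 dB replicate 4 (6.24 CPM, the others 1.80 to 2.29) and Tfpi2 in 94 dB replicate 4 (1.26 CPM, the others 0.663 to 0.736) stood apart likewise.

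The change against 70 dB differed between 105 dB and 94 dB in edgeR for 16 of the named genes that are no members, by the direct comparison of 105 dB with 94 dB. Of all tested genes, 17.3% passed in that comparison. Many of the 16 were named for a small p against 70 dB, and the comparisons share the 94 dB libraries. A difference in the opposite direction is thus partly built in, and nothing is read from the count. The 105 dB change was lower by a log2 difference of −0.62 for Tssc4, −1.15 for Gnas, −0.72 for Mkrn3, −0.48 for Akt2, −0.24 for Igfbp4, −0.23 for Cd81 and −0.47 for Cdkn2d. It was higher by 0.34 for Dcn, 0.41 for Ppp1r9a, 0.45 for Tnfrsf23, 0.29 for Cobl, 0.47 for Pon3, 0.25 for Irs2, 0.28 for Foxo3, 0.25 for Igf1 and 0.31 for Ctcf. Without 94 dB replicates 3 and 4, Akt2 (adjusted p = 0.048) was the 1 gene among them that still passed, and over the alternatives its adjusted p ran between 3.7e-06 and 0.048. The call ended without 94 dB replicate 2 for Cobl, without 94 dB replicate 3 for Tnfrsf23, Cobl, Irs2, Igfbp4, Igf1 and Cd81, and without 94 dB replicate 4 for Tnfrsf23, Cobl, Mkrn3, Irs2, Igf1 and Cd81. It also ended without 105 dB replicate 1 for Cobl, Mkrn3 and Irs2, without 105 dB replicate 2 for Tnfrsf23, Cobl, Irs2, Igfbp4 and Cd81, without 105 dB replicate 3 for Igf1, and without 105 dB replicate 4 for Cobl, Irs2, Igfbp4, Igf1 and Cd81. With the GC and length trend removed it ended for Dcn (adjusted p = 0.12), Igfbp4 (0.22) and Igf1 (0.66).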

How the results depend on the processing

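Over 22 alternatives the Plagl1 log2 fold change at 94 dB against 70 dB ran between −1.35 and −0.96. Once the GC and length trend was taken out, 3174 genes were called at 94 dB against 70 dB, in place of 5085, and 1887 at 105 dB against 94 dB, in place of 3372, and 10 other imprinted genes passed at 94 dB against 70 dB. With the replicate block and that trend removed, these counts were 3383, 2020 and 10, with 2 members called at 94 dB against 70 dB and 1 at 105 dB against 94 dB. Without 94 dB replicates 3 and 4 they were 1610, 217 and 4, with 1 member called at 94 dB against 70 dB, and 0 members and 0 other imprinted genes at 105 dB against 94 dB. At 105 dB against 70 dB, 316 genes were called, 523 with no filter, 479 with the replicate block, 685 with block and trend removal and 891 in DESeq2, and 0 other imprinted genes became 1 with upper-quartile factors and 2 in each of these 4. With 1 library left out, counts at 94 dB against 70 dB, 105 dB against 70 dB and 105 dB against 94 dB ran over 3452 to 5409, 126 to 399 and 1650 to 3798 for all genes, 3 to 4, 0 to 0 and 1 to 2 for members, and 10 to 19, 0 to 2 and 5 to 13 for other imprinted genes.

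At 94 dB against 70 dB the sign of several values turned with the trend removed, without and with the replicate block. Among these genes were Sgce (0.025 and 0.025), Rian (0.11 and 0.11), Pon2 (0.26 and 0.26) and Snhg14 (0.41 and 0.40). Tcf4 turned too (0.17 and 0.17, adjusted p = 0.049 and 0.054), as did the members Meg3 (0.10 and 0.10) and Cdkn1c (−0.24 and −0.25). The cause was not tested. Replicate numbers did not pair the libraries as a whole: same-number deviations correlated at −0.15 to 0.18, and in 5 of 12 pairs the same number was the best match. The 3 pairs over 0.1 were those of replicate 2, where the same number was the best match each time. Igf2 and Dlk1, the members with the fewest counts per length, are the least precise.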

Other observations

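Of the IGF and insulin signalling list, 21 genes were tested. At 94 dB against 70 dB 5 rose and 3 fell in edgeR, where 13.9% of all genes were higher and 12.2% lower, with a median log2 fold change of 0.05 against −0.018 over all genes. Akt2, a kinase below the insulin receptor, averaged 298 ± 39.6 CPM at 94 dB and 224 ± 9.75 CPM at 70 dB (SD, n = 4 each, log2 fold change 0.42, adjusted p = 0.0020). Igfbp4, a binding protein that holds IGFs, rose by 0.35 (adjusted p = 0.0021) and Igf1, a growth factor, fell by 0.35 (adjusted p = 0.0031). Igf1 lost the call with the GC and length trend removed (adjusted p = 0.73, 0.00028 to 0.74 over the alternatives). At 105 dB against 70 dB 2 rose, Irs2, an adaptor of the insulin receptor (76.4 ± 6.89 CPM at 105 dB and 57.3 ± 4.86 CPM at 70 dB, SD, n = 4 each, log2 fold change 0.41, adjusted p = 0.012), and Foxo3, a transcription factor restrained by Akt (0.33, adjusted p = 0.015). Foxo3 fell short of the threshold in fits that left out 105 dB replicate 2 or 70 dB replicate 4, with an adjusted p between 0.00015 and 0.074 over the alternatives.

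Of the inhibitors of cyclin-dependent kinases outside the members, 3 of 5 tested rose at 94 dB against 70 dB and none fell, where 13.9% of all genes were higher. Cdkn2d, the p19 inhibitor, averaged 86.8 ± 14.3 CPM at 94 dB and 52.7 ± 3.17 CPM at 70 dB (SD, n = 4 each, log2 fold change 0.72, adjusted p = 0.00015). Cdkn2c rose by 0.31 (adjusted p = 0.013) and Cdkn1a is given above, while Cdkn1b (−0.09) and Cdkn2b (0.12) did not pass. Both Cdkn2c (adjusted p = 0.59, 0.0023 to 0.59 over the alternatives) and Cdkn1a (adjusted p = 0.079) lost the call once the GC and length trend was taken out. Of 11 genes listed under imprint maintenance, 1 rose and 2 fell at 94 dB against 70 dB in edgeR. Over all genes 13.9% were higher and 12.2% lower, so nothing is read from these counts. Dnmt1, the maintenance DNA methyltransferase, rose by 0.30 (adjusted p = 0.016). Tet2, which oxidises methylcytosine, and Ctcf, which binds the H19 control region, fell by 0.28 and 0.21 (adjusted p = 0.011 and 0.021). None of the 3 passed without 94 dB replicates 3 and 4, where the adjusted p was 0.13, 0.18 and 0.25 in that order, and Ctcf was also lost without 94 dB replicate 3 or 4 or 70 dB replicate 2 or 3. Removing the GC and length trend ended the calls of Tet2 (adjusted p = 0.52) and Ctcf (0.20). Over the alternatives the adjusted p ran between 0.0058 and 0.13 for Dnmt1, 0.0020 and 0.54 for Tet2 and 0.0065 and 0.25 for Ctcf.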
